A study of Mus musculus with 12 samples.

Results

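Tumor necrosis factor and the feedback circuit of NF-κB were followed through 10 genes of the transcriptome of MC38 tumors: the cytokine gene Tnf, the transcription factor subunits Nfkb1, Nfkb2, Rel and Relb, the inhibitors Nfkbia and Tnfaip3, and the target genes Icam1, Vcam1 and Ptgs2. The 10 genes are the lines of the deposited count table that carry these gene symbols. All 10 were found among the 23282 genes of the table and all 10 passed the filter on low counts, which left 13464 genes for testing. In the tumors, the clearest pattern belonged to Nfkb2, whose level was lower in each of the 6 tumors given anti-PD-1 antibody than in each of the 6 tumors without it. Such a separation, in either direction, was found for 1.93% of all genes tested. That of Nfkb2 was lost when counts were scaled to library totals alone. None of the 10 genes reached an adjusted p under 0.05 with edgeR, as none of all 13464 genes did. DESeq2 called Icam1 in 1 comparison, the combined treatment against vehicle, where it called 14.8% of all genes. A single tumor of the combined treatment, Comb replicate 3, decided the size of the largest differences.

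The tumors came from MC38, a line of mouse colon carcinoma cells placed subcutaneously in wild-type female C57BL/6 mice, whose age the labels give as 6 weeks. The study asked what SFIH, a fraction of Inula helenium root rich in sesquiterpene lactones, adds to an antibody against the checkpoint receptor PD-1. The 12 tumors were collected on day 19 and fell into 4 groups of 3. Con mice received saline vehicle and the isotype antibody IgG2a, SFIH mice received SFIH at 50 mg/kg each day, PD mice received 200 μg of anti-PD-1 antibody 2 times a week, and Comb mice received both agents. Injections were intraperitoneal, the vehicle contained DMSO and a Tween detergent, and IgG2a was also given with SFIH alone. RNA of whole tumor tissue was read with a 3′ end kit, so the count of a gene does not grow with its length. The labels number the tumors of a group from 1 to 3 without saying that each came from a separate mouse. The p-values set differences between groups against the spread between these tumors, and they hold for mice only if each tumor had its own.

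NF-κB is a family of dimeric transcription factors held in the cytoplasm of resting cells by IκB proteins. When TNF or other signals activate the IκB kinase, IκBα, the product of Nfkbia, is degraded, and dimers of p65 with p50, made from Nfkb1, enter the nucleus. A slower branch processes p100, the product of Nfkb2, to p52, which pairs with RelB. The dimers switch on their own inhibitors, IκBα and the ubiquitin-editing enzyme A20 made by Tnfaip3, together with adhesion molecules of the vessel wall and inflammatory mediators, and this return path is what makes the circuit a feedback loop. In tumors, macrophages, endothelial cells, fibroblasts and carcinoma cells can all express these genes.

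NF-κB dimers bind κB sites near the genes they regulate. The windows from 250 bases before to 50 bases after the start sites were searched for the NF-κB consensus motif. Windows from RefSeq (build GRCm38.p6) were used for 7 of the 10 genes, and those of Nfkb1, Relb and Vcam1 were not analysed here. At least 1 match to the κB consensus, on either strand, lay in a window of 4 of the 7 genes, against 5.14% of the 27025 genes with a window. For each of these 4 genes 1 window follows, with the bases of the matches in capitals and overlapping matches joined. They are shown because both inhibitors and 2 of the subunit genes are among them, whereas the windows of Tnf, Icam1 and Ptgs2 held no match. The Tnfaip3 window lies at chr10:19015361-19015660 and the Nfkbia window at chr12:55492598-55492897, both on the minus strand. The Rel window lies at chr11:23770920-23771219 on the minus strand and the Nfkb2 window, the first of 3 listed for this gene, at chr19:46304487-46304786 on the plus strand. The sequences are written 5′ to 3′ along the gene.
Tnfaip3: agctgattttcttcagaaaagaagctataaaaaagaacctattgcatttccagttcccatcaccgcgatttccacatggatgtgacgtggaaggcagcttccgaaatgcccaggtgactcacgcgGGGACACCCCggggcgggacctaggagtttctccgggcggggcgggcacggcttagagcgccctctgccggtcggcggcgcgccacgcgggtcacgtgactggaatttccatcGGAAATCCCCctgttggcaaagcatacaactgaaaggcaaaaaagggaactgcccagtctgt
Nfkbia: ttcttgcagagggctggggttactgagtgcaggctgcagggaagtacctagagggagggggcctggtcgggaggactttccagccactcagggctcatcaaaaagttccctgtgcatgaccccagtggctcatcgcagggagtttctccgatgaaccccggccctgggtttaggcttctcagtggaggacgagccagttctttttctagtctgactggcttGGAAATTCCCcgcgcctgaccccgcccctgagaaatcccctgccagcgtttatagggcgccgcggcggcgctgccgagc
Rel: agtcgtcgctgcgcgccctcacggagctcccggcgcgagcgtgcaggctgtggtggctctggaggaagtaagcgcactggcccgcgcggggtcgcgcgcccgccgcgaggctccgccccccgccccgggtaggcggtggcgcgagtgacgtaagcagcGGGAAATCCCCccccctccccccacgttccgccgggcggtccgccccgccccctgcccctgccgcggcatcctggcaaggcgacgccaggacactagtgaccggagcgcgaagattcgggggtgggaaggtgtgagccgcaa
Nfkb2: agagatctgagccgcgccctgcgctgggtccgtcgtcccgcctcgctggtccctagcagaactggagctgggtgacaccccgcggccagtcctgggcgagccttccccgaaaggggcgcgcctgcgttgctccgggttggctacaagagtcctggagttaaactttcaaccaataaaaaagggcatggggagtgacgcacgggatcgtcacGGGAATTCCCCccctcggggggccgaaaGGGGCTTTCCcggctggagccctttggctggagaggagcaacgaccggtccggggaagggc
Counted from the start site, with negative positions before it, the single match of Nfkbia ran from -29 to -20. Tnfaip3 had a match from -125 to -116 and another from -12 to -3. Overlapping matches of Rel ran from -92 to -82, and the Nfkb2 window had overlapping matches from -39 to -29 and another from -11 to -2. A second listed window of Tnfaip3 held no match, and the other 2 windows of Nfkb2 held matches too, from -236 to -227 and from 11 to 20 in the one and from -225 to -216 in the other, the last of these being the same bases in overlapping windows. A match describes the letters of the window and is not evidence that a factor binds there.

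The totals of the 12 libraries lay between 7870741 and 12261032 counted reads. At this depth 3 counts correspond to between 0.218 and 0.408 CPM, the unit of all levels here, in which counts are scaled to a common library size by TMM. The label calls the source tumor cells. The epithelial markers Epcam, Krt8, Krt18, Krt19, Cldn4 and Cldn7 were each at or under 2.86 CPM in the 10 tumors other than Comb replicates 2 and 3, while Cdh1, the remaining gene of the list of 7, was at 1.67 to 5.89 CPM in 9 of them and at 15.6 CPM in PD replicate 2. Comb replicate 3 stood apart from the other 11 tumors. Its summed level of 8 skeletal muscle markers was 6381 CPM, against 10.3 to 626 in the other tumors, and that of 9 macrophage markers was 13282 CPM, against 502 to 3778. The main edgeR fold changes of the 10 genes that rest on the Comb group are therefore given with and without this tumor. In bulk tissue, fewer cells of a type and less RNA per cell cannot be told apart.

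**Figure D1:**
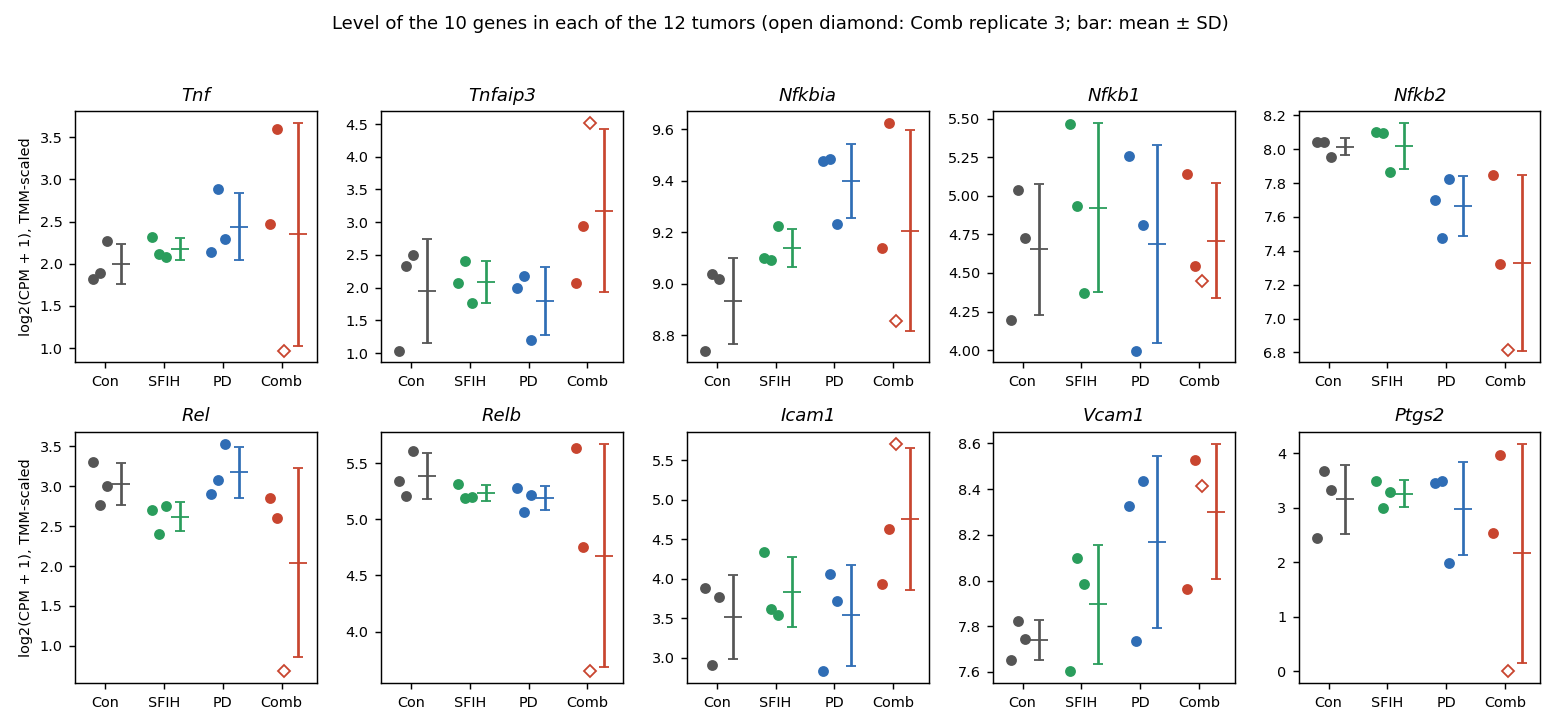
Level of each of the 10 genes in the 12 tumors, as log2(CPM + 1) with TMM scaling, by treatment group; points are tumors, the open diamond is Comb replicate 3, and bars give the mean ± SD of 3 tumors. Nfkb2 is lower in all PD and Comb tumors than in all Con and SFIH tumors, and Comb replicate 3 is the lowest of the 12 tumors for Tnf, Nfkb2, Rel, Relb and Ptgs2 and the highest for Tnfaip3 and Icam1.

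Tnf, the ligand of the circuit, was sparsely counted, with 8 to 97 reads per tumor. Its level was 2.54, 2.71 and 3.83 CPM in Con replicates 1 to 3, 4.0, 3.34 and 3.23 in those of SFIH, 3.42, 6.39 and 3.90 in those of PD and 4.56, 11.2 and 0.958 in those of Comb. The Comb group thus held both the highest and the lowest of the 12 tumors, and the Con, SFIH and PD groups overlapped. The fitted log2 fold change was 0.87 ± 0.65 (SE) between Comb and Con (edgeR quasi-likelihood test, Benjamini-Hochberg adjusted p = 0.40, n = 3 per group) and 1.37 ± 0.42 without Comb replicate 3 (adjusted p = 0.135). Without Comb replicate 2, the highest tumor, it was -0.13, so that these 2 tumors decided its size and its sign. Between PD and Con the log2 fold change was 0.59 ± 0.65, and 2 of the 3 PD tumors lay above all Con tumors. The value rested largely on PD replicate 2, without which it was 0.27. Averaged over SFIH, anti-PD-1 gave 0.62 ± 0.46 (edgeR, adjusted p = 0.503; exact permutation p = 0.433, 6 tumors against 6). Without Comb replicate 3 the average was 0.87 ± 0.29 (adjusted p = 0.135; exact permutation p = 0.0152, 5 tumors against 6), and without Comb replicate 2 it was 0.12 ± 0.39. Between Comb and PD the log2 fold change was 0.29 ± 0.64, against 0.78 ± 0.42 without Comb replicate 3 and -0.71 ± 0.60 without Comb replicate 2.

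Nfkb2, which encodes the p100 precursor of the slower branch, gave the most regular pattern over the treatment groups. Its level was 262, 263 and 247 CPM in Con replicates 1 to 3, 274, 272 and 232 in those of SFIH, 207, 177 and 225 in those of PD and 229, 159 and 111 in those of Comb. The Con and SFIH tumors lay between 232 and 274 CPM and the PD and Comb tumors between 111 and 229 CPM, so the 6 tumors with anti-PD-1 antibody and the 6 without it did not overlap. The gap between the lowest tumor of the one side, SFIH replicate 3, and the highest of the other, Comb replicate 1, was narrow. Averaged over SFIH, the log2 fold change with anti-PD-1 was -0.49 ± 0.17 (edgeR, adjusted p = 0.148), and an exact two-sided permutation test of the log2(CPM + 1) levels, 6 tumors against 6, gave p = 0.00216, the smallest that this design allows. That test was 1 of 20 such exact tests, for 10 genes and 2 agents, and its p is not adjusted for them. Of all 13464 genes tested, 1.93% did not overlap between these 2 sides, and 1 of the 10 genes, Nfkb2, did not.

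The lower Nfkb2 level was present in both anti-PD-1 groups taken singly, which the separation described above entails. Between PD and Con the log2 fold change was -0.34 ± 0.23 and between Comb and Con -0.63 ± 0.23 (edgeR, adjusted p = 1.0 and 0.132). Between Comb and SFIH it was -0.64 ± 0.23 (adjusted p = 0.181). Without Comb replicate 3 these Comb values were -0.41 ± 0.17 against Con and -0.42 ± 0.17 against SFIH. With all tumors, none of these comparisons had overlap, which follows from the same separation and adds nothing to it. Among all genes tested, 18.8%, 24.7% and 16.2% did not overlap in them. Without Comb replicate 3, the averaged log2 fold change was -0.38 ± 0.11 (adjusted p = 0.108) and no exact test is given, since leaving out a tumor of sides that do not overlap cannot make them overlap. DESeq2 without this tumor gave -0.37 with an adjusted p of 0.0329, which passed the threshold, as 7.3% of all genes did there. With CPM scaled to total counts in place of TMM, SFIH replicate 3 was at 228 CPM, below PD replicate 3 at 236 and Comb replicate 1 at 234, and the sides overlapped (exact permutation p = 0.00649). Levels of macrophage, fibroblast and T cell markers ran with this result. The summed macrophage level was 502 to 1019 CPM in the Con and SFIH tumors, 975 to 1957 in PD and 1108 to 13282 in Comb, and the summed fibroblast level was 1055 to 3623, 4190 to 6944 and 2985 to 24626 CPM. The summed level of the 8 T cell markers was 24.0 to 42.7 CPM in the Con and SFIH tumors, 43.1 to 120.1 in PD and 37.4 to 342 in Comb. The fibroblast sum is mostly collagen and Dcn. Of the same list, Pdgfra was at 63.9 to 81.8 CPM in Con, 49.9 to 127 in PD and 54.9 to 69.2 in Comb, and Pdgfrb at 31.2 to 53.2, 18.2 to 53.8 and 23.6 to 24.7 CPM. None of these 9 macrophage, 8 fibroblast and 8 T cell markers was at or under 1 CPM throughout a group, and their part in the result was not tested.

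**Figure D2:**
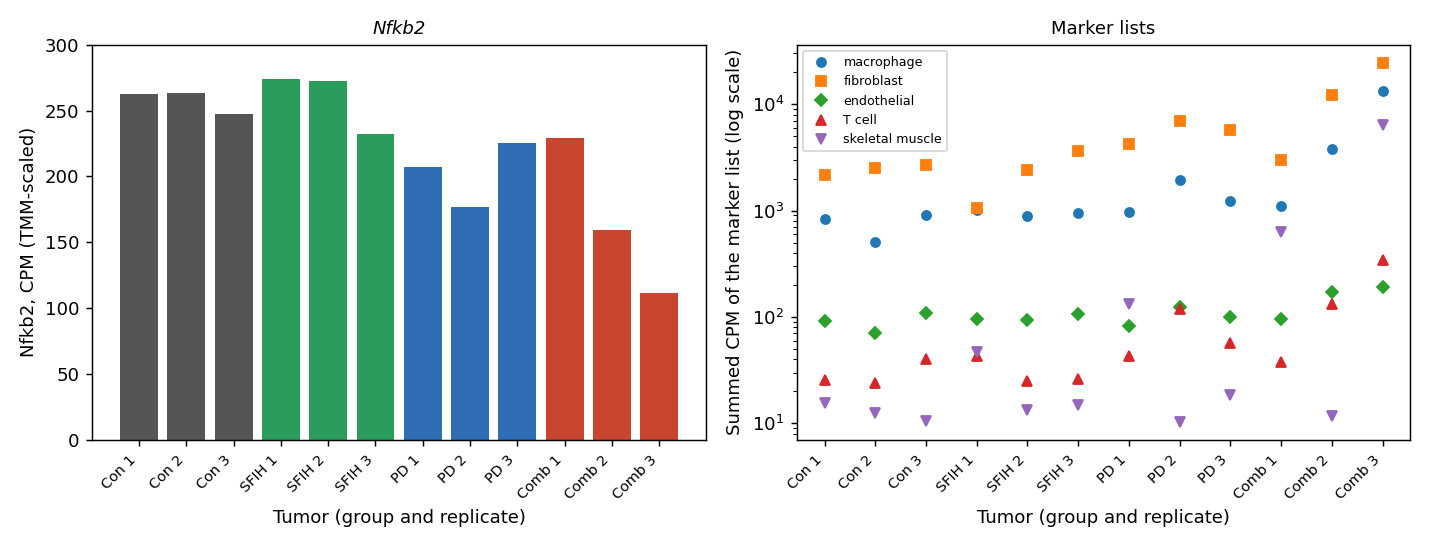
Left, level of Nfkb2 in each tumor in CPM (TMM-scaled; grey Con, green SFIH, blue PD, red Comb); right, summed CPM of 5 lists of cell type markers in the same tumors on a log axis. Nfkb2 is between 232 and 274 CPM in the Con and SFIH tumors and between 111 and 229 in the PD and Comb tumors, and the lowest Nfkb2 tumor, Comb replicate 3, has the highest level of the macrophage, fibroblast, endothelial, T cell and muscle lists.

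Rel, which encodes the c-Rel subunit known from lymphoid and myeloid cells, was lower on average in the tumors with SFIH. Its level was 8.85, 5.82 and 7.05 CPM in Con replicates 1 to 3, 5.52, 4.31 and 5.73 in those of SFIH, 6.51, 7.48 and 10.6 in those of PD and 6.21, 5.06 and 0.599 in those of Comb. All SFIH tumors lay below all Con tumors and all Comb tumors below all PD tumors, but over the 12 tumors Comb replicate 1 lay above Con replicate 2, so the 6 tumors with SFIH and the 6 without it overlapped. SFIH and Con were separated narrowly, by 5.73 against 5.82 CPM, and on total-count CPM they overlapped, with SFIH replicate 1 at 6.20 and Con replicate 2 at 6.03. Averaged over anti-PD-1, the log2 fold change with SFIH was -0.76 ± 0.41 (edgeR, adjusted p = 0.392; exact permutation p = 0.00433, 6 tumors against 6). Without Comb replicate 3, where only 5 reads were counted, it was -0.51 ± 0.21 (adjusted p = 0.276) and the exact permutation p was 0.00866. These exact p-values are not adjusted for the 20 exact tests. Between SFIH and Con the log2 fold change was -0.48 ± 0.58. Between Comb and PD it was -1.04 ± 0.59, and -0.54 ± 0.31 without Comb replicate 3. Between Comb and Con it was -0.86 ± 0.59, and -0.36 ± 0.31 without this tumor, and none of these values had an adjusted p under 0.05. The other 11 tumors had 44 to 106 reads of Rel each. In this averaged comparison 2.42% of all genes tested did not overlap, and none of the 10 genes was among them.

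Nfkb1 and Relb did not separate the groups. Nfkb1, the gene of p105 and p50, was at 17.4 to 31.8 CPM in Con, 19.7 to 43.3 in the SFIH group, 15.0 to 37.4 in the PD group and 20.8 to 34.3 in the Comb group. Every pair of groups overlapped, and the log2 fold change was 0.06 ± 0.39 between Comb and Con (0.19 ± 0.40 without Comb replicate 3) and 0.31 ± 0.39 between SFIH and Con. Relb, the partner of p52, was at 35.9 to 47.8 CPM in Con, 35.6 to 38.7 in the SFIH group and 32.5 to 37.8 in the PD group. In Comb its levels were 48.6, 26.0 and 11.5 CPM, so that this group held both the highest and the lowest tumor. The log2 fold change of Relb between Comb and Con was -0.51 ± 0.38 (edgeR, adjusted p = 0.40). It was -0.14 ± 0.23 without Comb replicate 3 and -1.12 ± 0.30 without Comb replicate 1, where the adjusted p was 0.0217. In that refit 28.5% of all genes were called.

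Nfkbia, the gene of IκBα, was higher in the single treatments than in Con. Its level was 427, 525 and 518 CPM in Con replicates 1 to 3, 548, 544 and 598 in those of SFIH, 713, 716 and 601 in those of PD and 563, 789 and 463 in those of Comb. The order Con, SFIH, PD held with no overlap between neighbours, although SFIH replicate 3 and PD replicate 3 were close at 598 and 601 CPM, and Comb spanned nearly the whole range. Between PD and Con the log2 fold change was 0.47 ± 0.21, with an unadjusted p of 0.0444 and an adjusted p of 1.0 (edgeR), and between SFIH and Con it was 0.20 ± 0.21. Between Comb and Con it was 0.31 ± 0.21 with all tumors and 0.46 ± 0.16 without Comb replicate 3 (adjusted p = 0.359 and 0.17). Without Comb replicate 2, the highest tumor, it was 0.056 ± 0.19. It was 0.05 ± 0.23 without TMM, a setting that moved the median of all genes in this comparison from -0.03 to -0.29. Averaged over SFIH, anti-PD-1 gave 0.29 ± 0.15 (exact permutation p = 0.0714, 6 tumors against 6), and 0.16 ± 0.13 without Comb replicate 2. Without Comb replicate 3 the value was 0.36 ± 0.11 (edgeR, adjusted p = 0.109; exact permutation p = 0.00649, 5 tumors against 6), and DESeq2 gave 0.38 with an adjusted p of 0.0309. That DESeq2 fit called 7.3% of all genes. On total-count CPM the exact permutation p of all 12 tumors was 0.665. The median Nfkbia level was 713 CPM in PD and 563 in Comb, against 518 in Con and 548 in SFIH.

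Tnfaip3, the gene of A20, was sparsely counted outside a single tumor. It was at 1.05, 4.01 and 4.64 CPM in Con replicates 1 to 3, 3.20, 4.31 and 2.40 in those of SFIH, 2.99, 3.54 and 1.30 in those of PD and 3.20, 6.67 and 21.9 in those of Comb. Comb replicates 2 and 3 were above the other 10 tumors, and Comb replicate 1 lay within the range of Con. The log2 fold change between Comb and Con was 1.71 ± 0.73 (edgeR, adjusted p = 0.173), and it was 0.61 ± 0.61 without Comb replicate 3 (adjusted p = 0.626). Between Comb and PD it was 2.03 ± 0.74 with all tumors and 0.92 ± 0.62 without this tumor, and between Comb and SFIH it was 1.68 ± 0.72 and 0.57 ± 0.60. The interaction, which asks whether SFIH acts differently with and without anti-PD-1, was 1.99 ± 1.03 on the log2 scale (adjusted p = 0.894) and 0.89 ± 0.83 without Comb replicate 3. SFIH averaged over anti-PD-1 gave 1.03 ± 0.51 (adjusted p = 0.366) and 0.48 ± 0.41 without this tumor.

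Among the targets, Icam1 had the largest difference in Comb and its size rested on the same tumor. Icam1 encodes an adhesion molecule that leukocytes bind on activated endothelium and other cells. Its level was 13.8, 6.52 and 12.6 CPM in Con replicates 1 to 3, 19.2, 11.3 and 10.6 in those of SFIH, 6.08, 15.6 and 12.2 in those of PD and 14.3, 23.8 and 51.4 in those of Comb. Each Comb tumor was above each Con tumor, Comb replicate 1 by a small margin, while Comb overlapped PD and SFIH. The log2 fold change between Comb and Con was 1.44 ± 0.51 (edgeR, adjusted p = 0.116). DESeq2 gave 1.48 with an adjusted p of 0.0417, the only call among the 10 genes with all 12 tumors under either tool. In this comparison DESeq2 called 14.8% of all genes tested. Without Comb replicate 3 the edgeR value was 0.79 ± 0.43 (adjusted p = 0.347). Against PD the difference was 1.40 ± 0.51 (0.75 ± 0.43 without this tumor) and against SFIH 1.12 ± 0.50 (0.47 ± 0.43). The interaction for Icam1 was 1.08 ± 0.71 (adjusted p = 0.894) and 0.43 ± 0.58 without Comb replicate 3, and SFIH alone differed from Con by 0.32 ± 0.50. SFIH averaged over anti-PD-1 gave 0.86 ± 0.36 (adjusted p = 0.329; exact permutation p = 0.0758, 6 tumors against 6), and 0.54 ± 0.29 without this tumor. The summed level of the 8 endothelial markers, 70.8 to 125 CPM in the 9 tumors outside Comb, was 95.4, 171 and 190 CPM in Comb replicates 1 to 3. Of this list, Pecam1, Tek, Cldn5, Vwf and Esam had the order of Icam1 in these tumors, with Pecam1 at 30.7, 69.8 and 87.9 CPM, whereas Emcn had not, Cdh5 was at 16.5, 21.0 and 21.0 CPM and Kdr at 24.8, 28.2 and 12.6 CPM. The macrophage list was at 1108, 3778 and 13282 CPM in these tumors, and the part of either list in the Icam1 values was not tested.

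Vcam1, the adhesion molecule that binds integrin α4β1 on lymphocytes and monocytes, differed less from tumor to tumor and did not rest on Comb replicate 3. It was at 200.2, 226 and 213 CPM in Con replicates 1 to 3, 193, 273 and 252 in those of SFIH, 320.3, 212 and 346 in those of PD and 248.9, 368 and 340.3 in those of Comb. The Comb tumors all lay above the Con tumors, and 2 of the 3 PD tumors did. Between Comb and Con the log2 fold change was 0.58 ± 0.23 (edgeR, adjusted p = 0.147) and 0.53 ± 0.23 without Comb replicate 3 (adjusted p = 0.237), and 0.30 ± 0.24 without TMM, beside an all-gene median of -0.29 there. Between PD and Con it was 0.46 ± 0.23 and between Comb and SFIH 0.41 ± 0.23 (0.36 ± 0.23 without Comb replicate 3). Averaged over SFIH, anti-PD-1 gave 0.44 ± 0.16 (adjusted p = 0.175; exact permutation p = 0.0325, 6 tumors against 6) and 0.41 ± 0.15 without Comb replicate 3, and the exact permutation p was 0.0541 without Comb replicate 3 and 0.154 on total-count CPM.

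Ptgs2, the gene of the inducible cyclooxygenase COX-2, had no reads at all in Comb replicate 3. Its level was 4.47, 11.8 and 9.10 CPM in Con replicates 1 to 3, 10.2, 6.98 and 8.75 in those of SFIH, 10.0, 10.3 and 3.0 in those of PD and 4.85, 14.6 and 0 in those of Comb. The 0 of Comb replicate 3 allows a level of up to 0.359 CPM, which is 3 counts, whereas Comb replicate 2 was the highest of the 12 tumors. The groups overlapped in every comparison. The log2 fold change between Comb and Con was -0.38 ± 1.0 (edgeR, adjusted p = 0.817) and 0.20 ± 0.57 without Comb replicate 3, so its direction turned on that tumor. Its size also rested on Comb replicate 2, without which it was -1.77 ± 1.08.

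**Figure D3:**
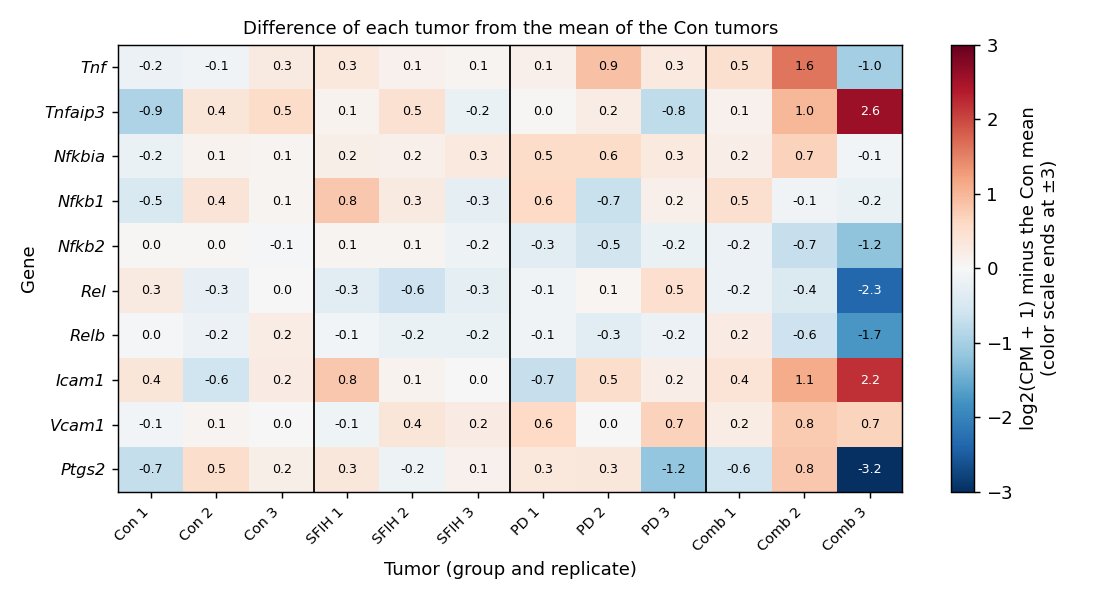
Difference of each tumor from the mean of the 3 Con tumors, for the 10 genes, in log2(CPM + 1); red is higher and blue lower, and the numbers are the differences. Comb replicate 3 has the strongest colors of both signs, and Nfkb2 is below 0 in all 6 PD and Comb tumors.

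Over the 10 genes, the Comb tumors took most of the extremes. Comb replicate 2 was the highest of the 12 tumors in 4 genes (Tnf, Nfkbia, Vcam1 and Ptgs2). Comb replicate 3 was the highest in 2 and the lowest in 5. Comb replicate 1 was the highest in 1 gene, Relb, and the lowest in none. Relative to Con, the 3 Comb tumors lay on 1 side for Nfkb2, Icam1 and Vcam1, whereas Tnf, Relb and Ptgs2 each had at least 1 Comb tumor above and at least 1 below all Con tumors.

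The counts over the group read as follows in each comparison, with all 12 tumors in 1 edgeR fit. In SFIH against Con, 0 of the 10 genes had an adjusted p under 0.05, as had 0.0% of all genes, and 0 had an unadjusted p under 0.05, against 2.25% of all genes. In PD against Con the count was again 0 beside 0.0% of all genes, with 1 gene, Nfkbia, under 0.05 unadjusted beside 3.99% of all genes. In Comb against Con it was 0 beside 0.0%, with 4 genes, Tnfaip3, Nfkb2, Icam1 and Vcam1, under 0.05 unadjusted beside 25.3% of all genes. DESeq2 called Icam1 in this comparison among 1998 genes in all, 14.8% of those tested, and none of the 10 genes in the other 7 comparisons, where it called from 0.00743% to 9.28% of all genes. In the anti-PD-1 average without Comb replicate 3, its calls of Nfkb2 and Nfkbia stood beside 7.3% of all genes. Comb against PD, Comb against SFIH, the interaction and both averaged comparisons had likewise 0 calls beside 0.0% of all genes, and 2, 3, 0, 2 and 1 of the 10 genes were under 0.05 unadjusted, for the anti-PD-1 average before the SFIH average, beside 18.0%, 19.0%, 2.55%, 18.7% and 14.5% of all genes. Without Comb replicate 1, edgeR called 5 of the 10 genes in Comb against Con (Tnfaip3, Nfkb2, Relb, Icam1 and Vcam1) beside 28.5% of all genes. The log2 fold changes were then 2.15 for Tnfaip3, -0.92 for Nfkb2, -1.12 for Relb, 1.78 for Icam1 and 0.74 for Vcam1, with adjusted p from 0.0103 for Nfkb2 to 0.0366 for Tnfaip3. Without the same tumor it called 2 in Comb against PD beside 15.2%, 4 in Comb against SFIH beside 22.5% and 2 in the anti-PD-1 average beside 17.1%.

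The number of genes whose tumors did not overlap between the groups was near the level of the whole table. It was 2 of 10 in SFIH against Con (Nfkbia higher, Rel lower) beside 17.4% of all genes, Rel no longer being among them on total-count CPM, and 2 of 10 in PD against Con (Nfkbia higher, Nfkb2 lower) beside 18.8%. In Comb against Con it was 3 of 10 (Icam1 and Vcam1 higher, Nfkb2 lower) beside 24.7%. It was 1 of 10 in Comb against PD (Rel lower) beside 14.3%, and 1 of 10 in Comb against SFIH (Nfkb2 lower) beside 16.2%. With 3 tumors against 3, the smallest exact two-sided p is 0.1. The median log2 fold change of the 10 genes in Comb against Con was 0.18, beside -0.03 for all genes, with 6 higher and 4 lower, and 0.33 without Comb replicate 3. Without TMM it was -0.06, with 5 higher and 5 lower, beside -0.29 for all genes. The comparisons with Con share the same 3 Con tumors.

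**Figure D4:**
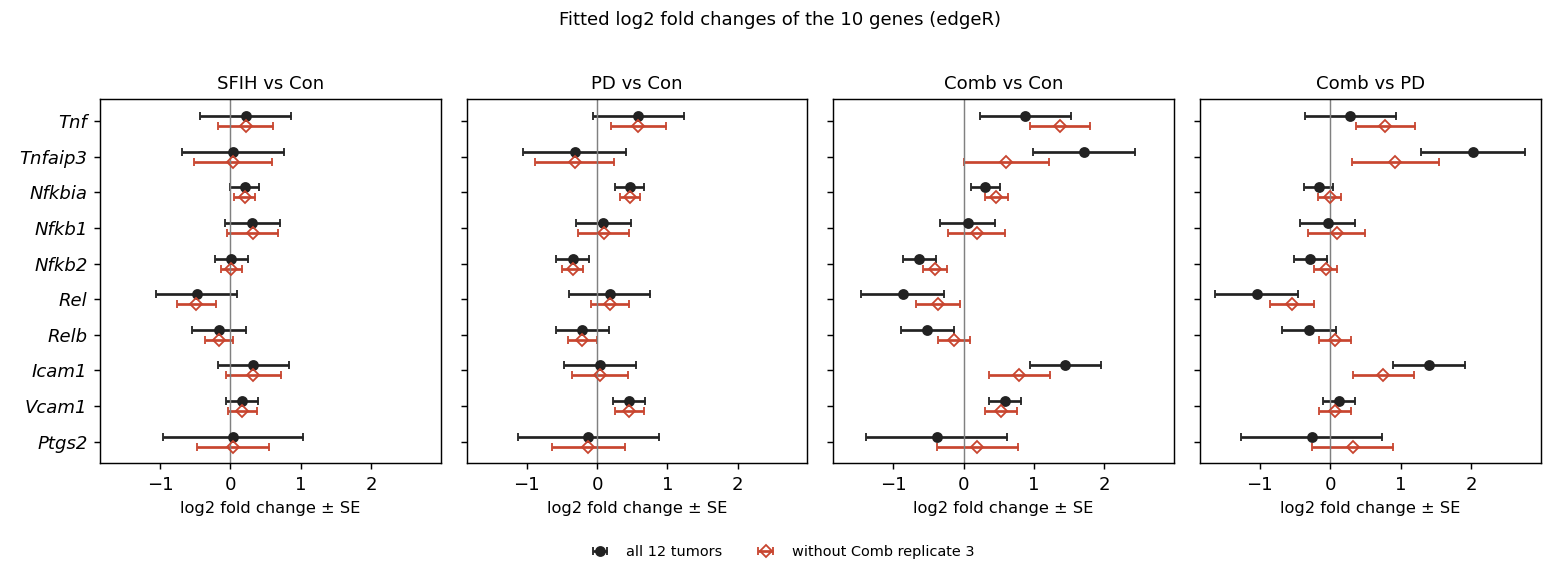
Fitted log2 fold change ± SE (edgeR) of the 10 genes in 4 comparisons, with all 12 tumors (filled circles) and without Comb replicate 3 (open diamonds). Leaving this tumor out moves Tnfaip3 in Comb against Con from 1.71 to 0.61 and Icam1 from 1.44 to 0.79, while Vcam1 moves from 0.58 to 0.53.

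The rest of the pathway was read from a list of 87 further symbols, of which 87 were in the table and 78 were tested. None of the 78 had an adjusted p under 0.05 in any of the 8 comparisons by edgeR. As none of all 13464 genes had, this count says nothing particular about the list. In Comb against Con, 53 were higher and 25 lower, with a median log2 fold change of 0.27, beside -0.03 for all genes, and 33 had an unadjusted p under 0.05, beside 25.3% of all genes. The median was 0.34 without Comb replicate 3 and 0.04 without TMM scaling, where 41 were higher. The 9 receptor genes had a median log2 fold change of 1.25 in Comb against Con and 0.47 without Comb replicate 3. Of these, 7 had higher values, among them the TNF receptor gene Tnfrsf1b at 1.33 and the lymphotoxin β receptor gene Ltbr at 0.51. The 2 others had lower ones, -0.18 for Tnfrsf1a, the other TNF receptor gene, and -1.82 for Tnfrsf13c, known from B cells. Without Comb replicate 3, 7 were higher too. The single values include this tumor, and how far each rests on it is not given here. In Comb replicates 1 to 3 the summed level was 1108, 3778 and 13282 CPM for the macrophage markers and 37.4, 133 and 342 CPM for the T cell markers, against 502 to 914 and 24.0 to 40.5 CPM in Con, and their part in the receptor values was not tested. The 20 adaptors and kinases were split evenly, with 10 higher and 10 lower and a median of 0.02 (0.04 without this tumor).

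Single genes of this list were named by the size of their difference. Tnip3, which encodes an A20-binding inhibitor, was at 0.312 to 5.17 CPM in 11 tumors and at 69.4 CPM in Comb replicate 3. Its log2 fold change between Comb and Con was 4.15 ± 1.23 (edgeR, adjusted p = 0.0792) and 1.21 without this tumor. Ier3, an early response gene of the pathway, ran the other way and did not depend on it. Ier3 was at 365 to 441 CPM in Con and 246 to 514 in SFIH, against 117 to 394 in PD and 135 to 254 in Comb, so the sides overlapped through SFIH replicate 2 and PD replicate 2. Averaged over SFIH, anti-PD-1 gave -0.94 ± 0.30 for Ier3 (adjusted p = 0.134), and -0.96 without Comb replicate 3. Zfp36, whose product binds AU-rich elements of cytokine mRNAs such as that of Tnf, was at 2.89 to 6.78 CPM in Con and 7.60 to 17.3 in SFIH. These groups did not overlap, as for 17.4% of all genes tested, and the log2 fold change was 1.09 ± 0.55 (adjusted p = 1.0). On total-count CPM they overlapped, since Con replicate 3 had 76 of 10023350 reads and SFIH replicate 3 had 73 of 9773778. Without SFIH replicate 1, the tumor at 17.3 CPM, the Zfp36 value was 0.66 ± 0.60. Cd83, a marker of activated dendritic and B cells, had 1.30 ± 0.53 with SFIH averaged over anti-PD-1 and 0.60 without Comb replicate 3, where it was at 71.99 CPM. Junb, a subunit of AP-1, had the lowest interaction among list genes with a mean of at least 50 counts, -1.05 ± 0.58 (adjusted p = 0.894), and -0.71 without that tumor. The chemokine gene Cxcl2 was at 1.70 to 15.2 CPM in PD and 2.99 to 4.37 in Comb. Its log2 fold change between Comb and PD was -0.85 ± 0.73 with all tumors and -0.74 without Comb replicate 3. The direction rested on PD replicate 2, since PD replicates 1 and 3, at 2.13 and 1.70 CPM, lay below all Comb tumors. Without PD replicate 2 the log2 fold change was 0.85 ± 0.47.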

How the data were processed

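RNA of 12 MC38 tumors was sequenced by the study with the QuantSeq 3′ mRNA kit as single-end reads. The authors deposited raw counts of reads per gene symbol without normalization, and the genome build, the annotation, the aligner and the counter behind them are not given in the sources used here. Tumors were grouped by their labels, 3 in each group, and replicate columns differed by more than counting noise. The 10 genes, the pathway list and the marker lists were chosen with earlier results of these data known.

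Counts were tested in R 4.3.3 with edgeR 4.0.16 (filterByExpr, TMM, quasi-likelihood test, two-sided, all 12 tumors in 1 fit with a coefficient per group), with Benjamini-Hochberg adjustment over 13464 genes and a threshold of 0.05. The averaged comparisons set the mean of the 2 groups with an agent against that of the 2 groups without it. CPM use TMM library sizes unless stated. Exact permutation tests used log2(CPM + 1). Floors of 3 counts cover counting error only, since reads carry no molecular identifiers, whereas SE and SD include the spread between tumors. The fits were also run on simulated counts with large planted changes in Comb and no outlying tumor. That run does not bear on small changes or on Comb replicate 3. Alternatives were DESeq2 1.42.0, no TMM or upper-quartile scaling, no low-count filter or a mean of at least 50 counts, only the compared groups in the fit, a replicate block, and leaving out each tumor, with DESeq2 also run without Comb replicate 3. Tumor-level overlap and exact tests on total-count CPM or without Comb replicate 3 were added after seeing the data.

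All 10 genes are named. From the pathway list, the gene with the largest log2 fold change in each direction was named per comparison among those with a mean of at least 50 counts, and for each of the 10 genes the 2 genes nearest in rank over the tumors. Promoter windows came from RefSeq (GRCm38.p6), were searched on both strands for the κB consensus and were used only as sequence, since the build of the counts is not known to be the same. Figures were drawn with matplotlib 3.10.9.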

Additional observations from a re-analysis of the deposited data

How the results depend on the processing

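Between 0 and 5 of the 10 genes passed the threshold in Comb against Con when single tumors were left out, 0 to 2 in Comb against PD, 0 to 4 in Comb against SFIH and 0 to 2 in the anti-PD-1 average. All calls of these refits came without Comb replicate 1, where 28.5%, 15.2%, 22.5% and 17.1% of all genes were called in these comparisons. DESeq2 called 1 gene in Comb against Con and, without Comb replicate 3, 2 in the anti-PD-1 average, beside 14.8% and 7.3% of all genes. Groups did not overlap in 1 gene for SFIH against Con, 0 for Comb against SFIH and 0 for the anti-PD-1 average on total-count CPM (16.4%, 19.5% and 2.61% of all genes), and in 5 genes for Comb against Con and 2 for Comb against SFIH without Comb replicate 3 (32.9% and 22.7%). Without TMM the median log2 fold change of all genes moved to -0.29 in Comb against Con and -0.21 in the anti-PD-1 average. Nfkb1 in Comb against Con was -0.17 without TMM, -0.030 with the replicate block and from -0.20 to 0.27 with tumors left out. Leaving out tumors gave -0.020 to 0.55 for Nfkb1 and -0.0086 to 0.51 for Icam1 in SFIH against Con, -0.13 to 1.37 for Tnf and -1.77 to 0.20 for Ptgs2 in Comb against Con, and -0.71 to 0.78 for Tnf in Comb against PD. Ptgs2 in Comb against Con was 0.23 by DESeq2 without Comb replicate 3. The causes were not tested. Over all 80 fold changes (10 genes, 8 comparisons) and 1549 refits, 1444 kept sign and side of the threshold, 16 newly passed it and 89 changed sign, the last in 36 of the 80; without Comb replicate 3, 12 of 80 changed sign. The replicate block changed no call and the sign of 2 of 80. Replicate numbers did not pair the tumors: of 18 same-number pairs, 6 correlated above 0.1 and 6 below -0.1, and 2 of 12 tumors correlated best with their own number. Low counts limit Tnf, Tnfaip3, Rel and Ptgs2 most.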

Other observations

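Genes with the most similar order of levels over the 12 tumors were sought for each of the 10 genes by the sum of absolute rank differences, which can reach 72, among 10594 genes with a mean of at least 50 counts. The closest orders were those of Ppp1ca and Fbxl15 to Nfkb2 and of Lgals9 and Rac2 to Icam1, with a sum of 6 for each. Lgals9 encodes galectin-9 and Rac2 a GTPase of blood cells. Tnf was nearest to Slco3a1 (8) and to Pou2f2 (10), a B cell transcription factor gene. Tnfaip3 was nearest to Mthfs (10) and Ust (12), Nfkbia to Nrd1 and Fam133b (12 each), and Nfkb1 to Irs1 (10) and Eif4g3 (12). Rel was nearest to Vcpip1 and 1700007J10Rik (12 each), Relb to B4galt3 and Pygb (10 each), and Vcam1 to Psme2b and Triap1 (10 each). Ptgs2 had no close neighbour, with Rsl24d1 at 16 and Prpf18 at 18. For some of the 10 genes further genes tied at the second of these sums, 9 in all for Rel. The 12 tumors share depth and composition differences, and these sums are given as a description only.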
